A study of Mus musculus with 9 samples.

Results

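Genes of DNA repair and of the damage checkpoint were read in electroporated cells of the embryonic mouse cortex in which a circular RNA or the messenger RNA of the same gene, Slc45a4, had been knocked down. The group holds 43 genes, chosen as the count table's entries whose symbols stand on a list written by repair route: 8 genes of homologous recombination, 5 of end joining, 7 of base excision and single-strand break repair, 3 of mismatch repair, 3 of nucleotide excision repair, 5 of the Fanconi pathway, 2 RecQ helicases, 6 break sensors and mediators, and 4 checkpoint kinases. These are 43 of 53379 gene IDs in the table. No measured value was a criterion of the list, although it was chosen with earlier results of these data known. All 43 passed the filter on low counts, which left 17760 genes for testing.

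The cells came from C57BL/6 embryos whose cortex had been electroporated in utero at E13.5 and was collected 48 h later, at E15.5, when GFP+ cells were sorted. RNA was isolated with Trizol and polyA-selected for Illumina TruSeq libraries. The circSlc45a4 knockdown group received 3 short hairpin RNAs (shRNAs) against the circular RNA, the Slc45a4 mRNA knockdown group received 2 shRNAs against the linear transcript, and the scramble group received 1 scrambled sequence. Each group has 3 libraries, which the submitters call biological replicates, and all 3 groups share the strain, the electroporation, the GFP gate and the age. The hairpins of a group were given as a mix, so no single hairpin can be assessed, and sorted cells hold every cell type that took up the plasmid. A circular RNA has no polyA tail, so its own level is not read in these libraries.

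DNA breaks are found by the MRN complex (Mre11, Rad50 and Nbn), which activates the kinase Atm, while stretches of single-stranded DNA activate Atr through Topbp1. Both kinases act through Chek2 and Chek1 to hold the cell cycle. Breaks are then rejoined end to end by the Ku and DNA ligase IV machinery, or copied from the sister chromatid by homologous recombination, which is open to cells in S and G2 phase. Damaged bases and single-strand breaks are handled by base excision repair, in which Apex1, Polb, Xrcc1, Lig3 and the Parp enzymes take part. In the fetal cortex the cycling cells are the progenitors of the ventricular and subventricular zones, and the neurons they produce have left the cycle.

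The libraries held 21073174 to 45469298 counts, and the least read gene of the group (Xrcc3) had 85 counts in its lowest library. Values below are CPM, the count per 1000000 of the library total scaled by the trimmed mean of M-values (TMM), given for replicates 1, 2 and 3 in that order. Slc45a4 itself was read at 31.4, 33.6 and 34.0 CPM in scramble, at 25.4, 25.3 and 24.7 after circSlc45a4 knockdown and at 13.2, 18.5 and 17.4 after Slc45a4 mRNA knockdown, lowest in the group whose hairpins target it. Its log2 fold change against scramble was -0.39 in the circSlc45a4 knockdown and -1.01 in the Slc45a4 mRNA knockdown. Both were lower in edgeR's quasi-likelihood test (adjusted p of 0.0245 and 0.000108). The libraries also differed in Xist, a transcript of female cells, which was read at 635, 264 and 428 CPM in the circSlc45a4 knockdown, at 1550, 637 and 0.194 in the Slc45a4 mRNA knockdown and at 0.239, 0.0648 and 0.0617 in scramble. A fit with the Xist level as a covariate is therefore given with the calls against scramble, of which 3 held in it (Polb in the circSlc45a4 knockdown, Atm and Lig3 in the Slc45a4 mRNA knockdown). Within a group, Xist was far apart only through replicate 3 of the Slc45a4 mRNA knockdown, so this covariate rests largely on that library. Where calls ended in this fit, the change became larger for some genes and smaller for others. Whether Xist or sex accounts for any call was not tested. The 39 genes of a list for S phase and replication, the part of the cycle in which several of the genes below are at their highest, summed to 1677, 2133 and 2425 CPM in scramble, to 1425, 1494 and 1699 after circSlc45a4 knockdown and to 2858, 2358 and 2367 after Slc45a4 mRNA knockdown. The 30 genes of a G2 and M phase list summed to 1200.0 to 2177, 1232 to 1405 and 2037 to 3024 CPM in the same order. Apical progenitor markers (20 genes) summed to 1225 to 1623 CPM in scramble, 2271 to 2459 in the circSlc45a4 knockdown and 1406 to 1777 in the Slc45a4 mRNA knockdown, and projection neuron markers (16 genes) to 8163 to 9764, 7474 to 7989 and 7162 to 7884. Lists for microglia, endothelium and pericytes, red blood cells and inhibitory neurons each summed to at most 25.6 CPM in any library.

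Per kilobase of exon, Apex1, the endonuclease that cuts the backbone at a lost base, had the highest level of the 43 genes in scramble, at 99.4 CPM per kb. Parp1, which senses strand breaks, followed at 59.3 CPM per kb, Trp53bp1, a chromatin-bound mediator that favours end joining, at 26.6 and Ercc2, a helicase of transcription factor IIH, at 20.7. The genes of homologous recombination were at the low end: Palb2, the partner that links Brca1 to Brca2, was lowest at 1.13 CPM per kb, and all 8 lay at or under the 3.64 CPM per kb of Brca1. Of the kinases, Atm was read at 5.57, Chek1 at 3.95, Chek2 at 3.16 and Atr at 2.33 CPM per kb. The low place of Atr depends on its annotated exon length, 23629 bases against 10338 for Atm. Without division by length, the scramble means were 57.6 CPM for Atm, 55.0 for Atr, 18.3 for Chek1 and 9.48 for Chek2.

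Against scramble, the circSlc45a4 knockdown had 9 of 43 genes lower and 1 higher, and the median log2 fold change of the 43 was -0.16, beside -0.01 for all genes tested. A call here is an adjusted p under 0.05 in edgeR's quasi-likelihood test, with Benjamini-Hochberg adjustment over all 17760 genes. Of all genes, 13.0% were called lower and 14.1% higher in that comparison, 27.1% in all, against 23.3% of the repair genes, so the share called lay near that of genes in general while the direction was mostly downward. The Slc45a4 mRNA knockdown had 9 of 43 higher and 5 lower than scramble, with a median of 0.22 beside 0.01 for all genes. There 8.92% of all genes were called higher and 9.09% lower, 18.0% in all, against 32.6% of the repair genes.

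Between the knockdowns, 17 of 43 genes were lower in the circSlc45a4 knockdown than in the Slc45a4 mRNA knockdown and 2 were higher. The median was -0.36, beside -0.02 for all genes. Of all genes tested, 12.3% were called lower and 13.8% higher in this direct comparison, 26.1% in all, against 44.2% of the repair genes. By sign alone, 23 genes had a negative log2 fold change against scramble in the circSlc45a4 knockdown and a positive one in the Slc45a4 mRNA knockdown, 13 were negative in both, 6 were positive in both and 1 showed the reverse. Both sets of changes use the same 3 scramble libraries, so their signs are not independent. The same split was not made over all genes, and these sign counts are a description only. In all, 27 genes were called in at least 1 comparison and 16 in none. The matching share of all genes was not counted, so these counts are not set against genes in general. In bulk RNA, fewer cells of a type and less RNA per cell cannot be told apart.

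Single libraries stood apart for many of these genes. Replicate 1 of the Slc45a4 mRNA knockdown was the highest of all 9 libraries for 24 of the 43 genes, and it also had the highest S phase and G2 and M phase sums. Within scramble, replicate 1 was the lowest for 31 genes and replicate 3 the highest for 33, in the same order as their S phase sums. The same counts were not made over all genes tested, so whether the repair genes differ in this from other genes is not known. Without replicate 1 of the Slc45a4 mRNA knockdown, or without replicate 1 of scramble, the 9 genes higher in the Slc45a4 mRNA knockdown than in scramble came to 1, and without scramble replicate 2 to 2. With the replicate number as a block they came to 4, and the 5 lower genes to 2. With the Xist covariate 1 was higher and 1 lower, and the 9 lower genes of the circSlc45a4 knockdown came to 0. Over all genes, that covariate brought the calls against scramble from 3200 to 758 in the Slc45a4 mRNA knockdown and from 4814 to 1241 in the circSlc45a4 knockdown. All 3 libraries of that group read Xist and no scramble library did beyond a few counts, so in that comparison the Xist level and the knockdown cannot be told apart. The direct comparison had 17 lower and 2 higher calls with that covariate, of which 18 were the same genes, Rif1 being lost and Palb2 gained. It had between 12 and 19 lower calls when any 1 library was left out. With only the 6 libraries compared, the calls of Fancd2, Lig4, Ogg1, Pms2, Rad54b and Xrcc6 in the Slc45a4 mRNA knockdown and those of Parp1 and Rif1 between the knockdowns ended. In limma-voom those of Ogg1, Pms2 and Rad54b in the Slc45a4 mRNA knockdown ended.

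**Figure D1:**
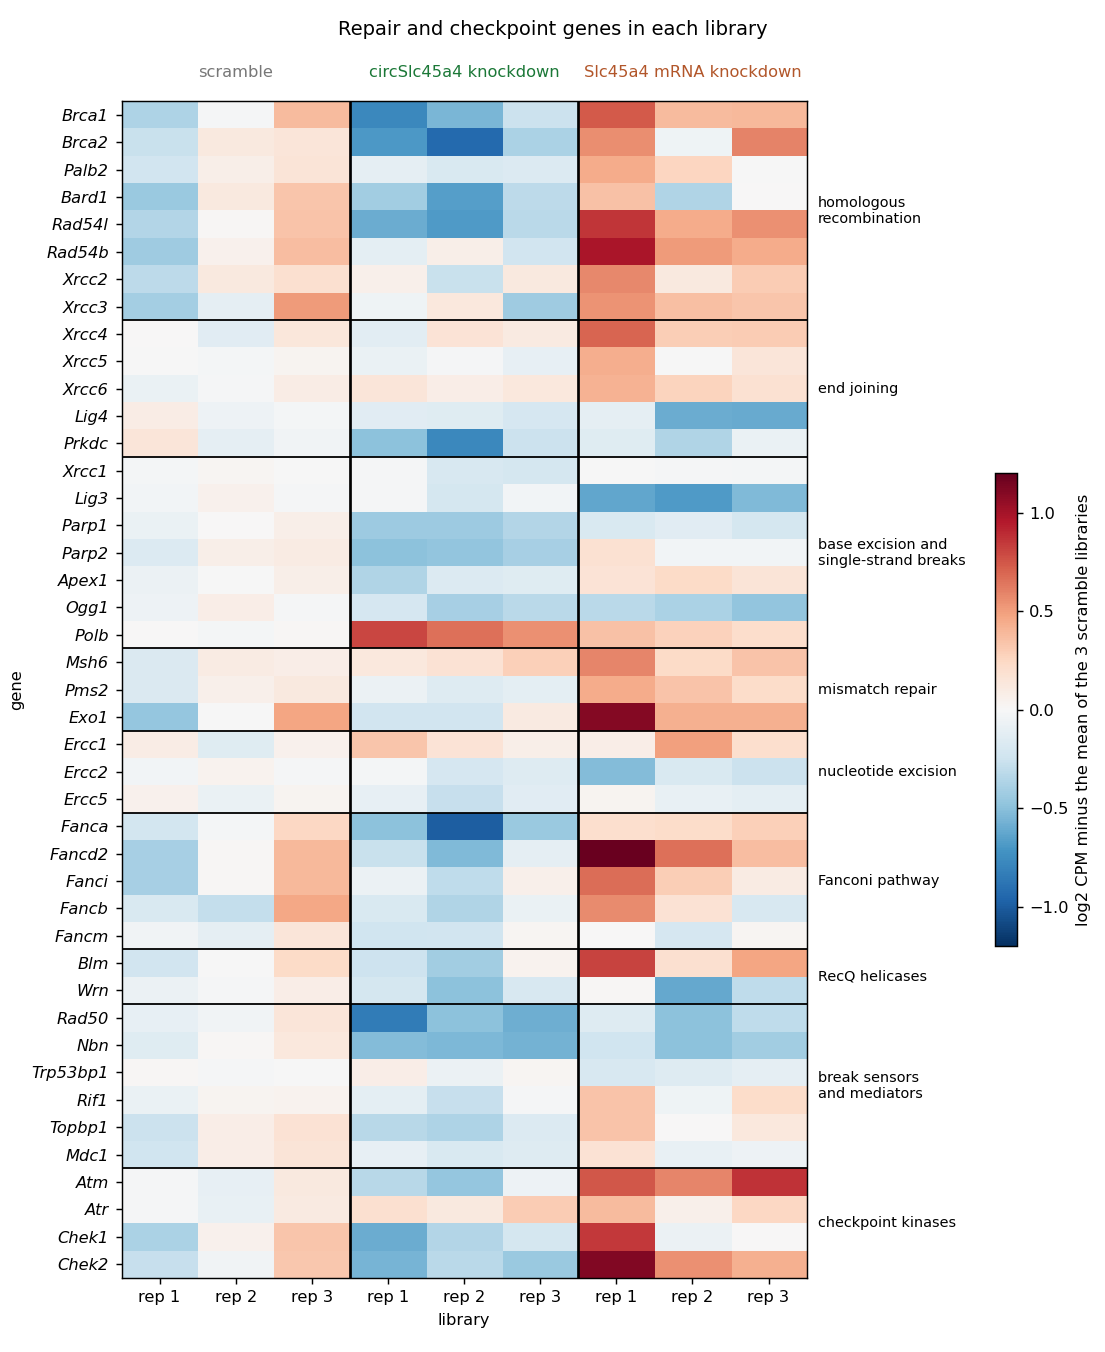
Level of each of the 43 genes (vertical axis, ordered by repair route) in each of the 9 libraries (horizontal axis), as log2 CPM minus the mean of the 3 scramble libraries (color). The 3 circSlc45a4 knockdown libraries are mostly below the scramble mean, and replicate 1 of the Slc45a4 mRNA knockdown is the highest library for 24 genes.

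**Figure D2:**
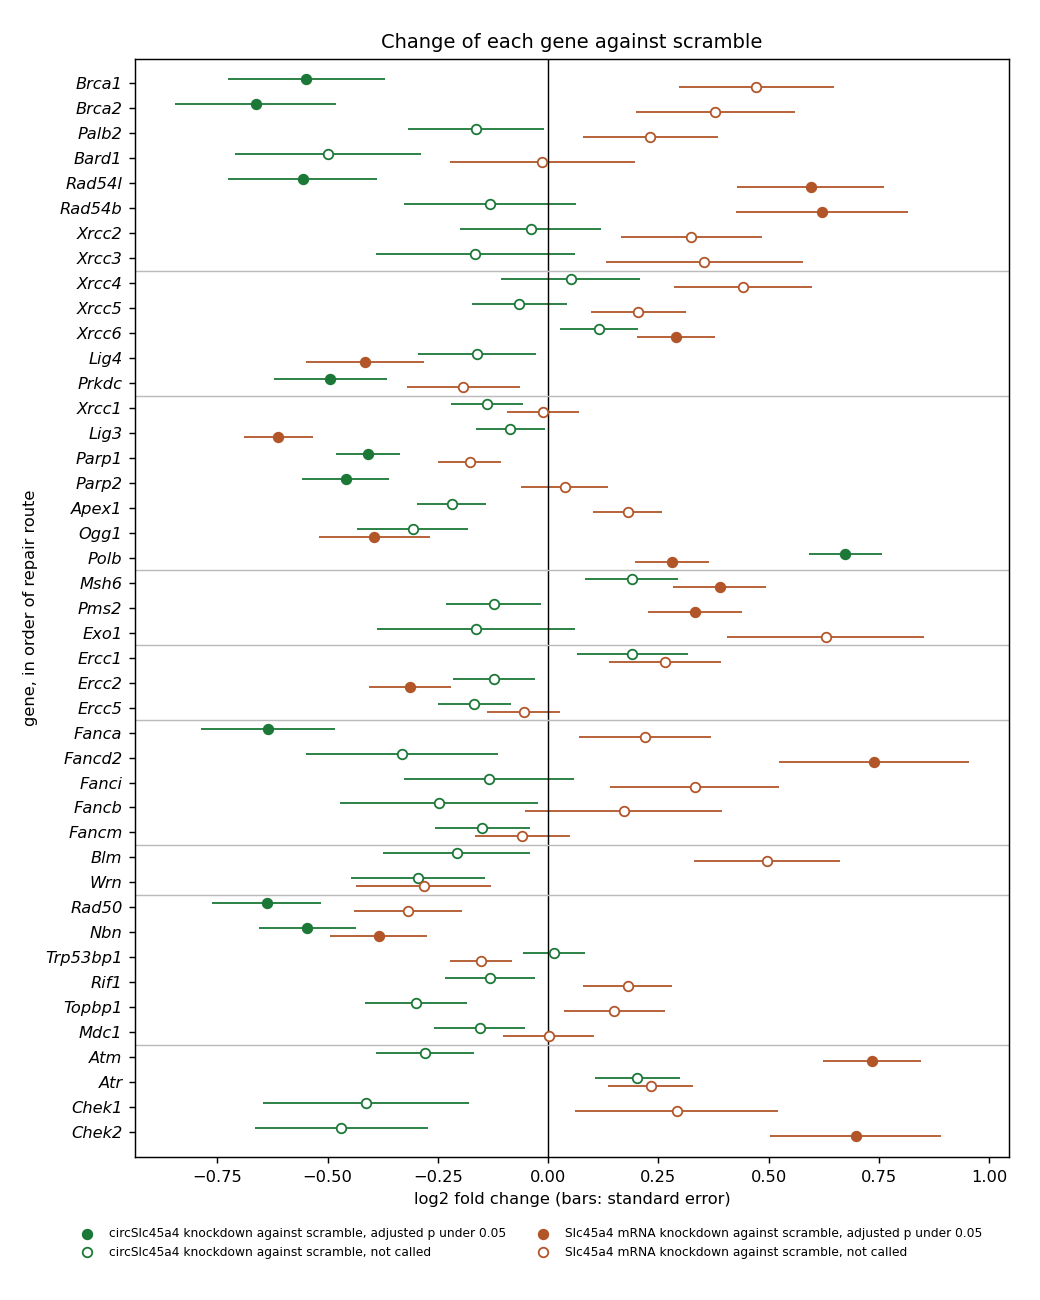
Log2 fold change against scramble of each gene in the circSlc45a4 knockdown (green) and the Slc45a4 mRNA knockdown (brown), with the standard error as bars and filled points for adjusted p under 0.05. Of the 43 genes, 23 lie left of zero in green and right of zero in brown, and 9 green points left of zero are filled. Both colors use the same scramble libraries.

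The promoters of these genes were searched for words of E2F, NF-Y and the CHR element, which are known from cell-cycle genes. RefSeq promoter windows of build GRCm38.p6, reaching from 250 bases before to 50 after the gene start, were found for 33 of the 43 genes (not for Rad54b, Xrcc2, Prkdc, Polb, Exo1, Fancd2, Wrn, Rad50, Nbn and Rif1). E2F words, taken as TTTGGCGC, TTTCGCGC, TTTCCCGC or TTTGCCGC on either strand, stood in 7 of the 33 (21.2%), in 14 of 30 S phase genes (46.7%) and in 2.6% of all 27025 genes with a window. No E2F word contains either of the other 2 words searched. The NF-Y word CCAAT stood in 60.6% of the 33 against 41.1% of all genes, and the CHR word TTTGAA, found in promoters of mitotic genes, in 6.06% against 20.2%. E2F words stood in 3 of 13 genes (23.1%) lower in the circSlc45a4 than in the Slc45a4 mRNA knockdown and in 4 of 20 (20.0%) of the others. A match is a description of these letters, not a site shown to be bound. The stretches around the word are printed for the 3 genes that hold one and were called between the knockdowns, Brca2, Chek2 and Topbp1, and for 2 called in no comparison, Bard1 and Mdc1. Each reads 5′ to 3′ on the gene's strand and lies before the annotated gene, with the E2F word in capitals (its reverse complement for the first 3).
Brca2: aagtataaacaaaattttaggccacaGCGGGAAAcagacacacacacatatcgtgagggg
Chek2: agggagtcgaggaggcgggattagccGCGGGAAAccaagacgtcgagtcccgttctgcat
Topbp1: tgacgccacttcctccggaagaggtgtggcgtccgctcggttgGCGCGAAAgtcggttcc
Bard1: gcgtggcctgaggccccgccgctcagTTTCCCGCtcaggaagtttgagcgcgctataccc
Mdc1: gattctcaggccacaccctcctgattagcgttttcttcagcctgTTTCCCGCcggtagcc
The Brca2 stretch is chr5:150522427-150522486, plus strand, and its word begins at -168 from the RefSeq start. The Chek2 stretch is chr5:110839805-110839864, plus strand, with the word at -152. That of Topbp1 is chr9:103305155-103305214, plus strand, with the word at -129. The Bard1 stretch is chr1:71103148-71103207, minus strand, with the word at -209, and the Mdc1 stretch is chr17:35841438-35841497, plus strand, with the word at -16. The other 2 genes with a word, Xrcc6 and Msh6, were called in the Slc45a4 mRNA knockdown against scramble and hold it at -46 and 16.

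In homologous recombination, all 8 genes had a negative log2 fold change in the circSlc45a4 knockdown against scramble (median -0.33), 7 of 8 a positive one in the Slc45a4 mRNA knockdown (median 0.37), and all 8 a negative one between the knockdowns (median -0.64). Brca1, the ubiquitin ligase that directs broken ends into recombination (ENSMUSG00000017146.12, chromosome 11, 101488764 to 101551955, minus strand, GRCm38), was read at 23.5, 30.1 and 39.5 CPM in scramble, at 17.8, 20.7 and 25.3 after circSlc45a4 knockdown and at 50.4, 39.6 and 39.6 after Slc45a4 mRNA knockdown. Its highest circSlc45a4 knockdown library overlapped the lowest scramble library, and every Slc45a4 mRNA knockdown library lay above all others, the lowest by a narrow margin. The log2 fold change was -0.55 ± 0.18 (adjusted p = 0.036) in the circSlc45a4 knockdown, 0.47 ± 0.18 (adjusted p = 0.0814) in the Slc45a4 mRNA knockdown, and -1.02 ± 0.18 (adjusted p = 0.00111) between them. Brca2 was read at 23.2, 30.5 and 31.0 CPM in scramble, at 17.4, 14.7 and 21.5 after circSlc45a4 knockdown and at 41.3, 27.0 and 42.2 after Slc45a4 mRNA knockdown. Brca2, a large mediator of recombination, was lower in all 3 circSlc45a4 knockdown libraries than in any other library, and the Slc45a4 mRNA knockdown overlapped scramble. It fell by 0.66 on the log2 scale against scramble (SE 0.18, adjusted p = 0.0162), and the change between the knockdowns was -1.04 ± 0.18 (adjusted p = 0.00113).

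Rad54l and Rad54b are motor proteins that act on DNA during recombination. Rad54l was read at 14.9, 19.3 and 24.1 CPM in scramble, at 12.7, 11.9 and 15.2 after circSlc45a4 knockdown and at 34.6, 26.0 and 27.9 after Slc45a4 mRNA knockdown. It was the only one of the 43 genes called in opposite directions against scramble: -0.56 ± 0.17 (adjusted p = 0.0265) in the circSlc45a4 knockdown and 0.60 ± 0.17 (adjusted p = 0.0259) in the Slc45a4 mRNA knockdown. The libraries of the knockdowns did not overlap, and their difference was -1.15 ± 0.17 (adjusted p = 0.000334). Rad54b was read at 7.41, 10.3 and 12.8 CPM in scramble, at 9.17, 10.47 and 8.47 after circSlc45a4 knockdown and at 19.6, 14.2 and 13.6 after Slc45a4 mRNA knockdown. Scramble and the circSlc45a4 knockdown overlapped (-0.13 ± 0.20 (adjusted p = 0.657)), whereas the Slc45a4 mRNA knockdown lay above both, at 0.62 ± 0.19 (adjusted p = 0.0415) against scramble, and the knockdowns differed by -0.75 ± 0.19 (adjusted p = 0.0118). Of the Rad54b exon sequence, 35.8% is shared with Fsbp on the same strand, so reads there may belong to either gene, and 15.4% of that of Rad54l with Lrrc41 on the opposite strand. Against scramble, Fsbp was at 0.04 in the circSlc45a4 and -0.04 in the Slc45a4 mRNA knockdown on the log2 scale, and Lrrc41 at 0.30 and -0.11. Palb2, Bard1 (the partner of Brca1), Xrcc2 and Xrcc3 were called in no comparison, with log2 fold changes between the knockdowns of -0.39, -0.49, -0.36 and -0.52.

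The sums over the 8 recombination genes were 100.2, 132 and 155 CPM in scramble, 93.7, 90.3 and 107 after circSlc45a4 knockdown and 201, 148 and 168 after Slc45a4 mRNA knockdown. Scramble and the circSlc45a4 knockdown overlapped in this sum, through scramble replicate 1, and so did scramble and the Slc45a4 mRNA knockdown, through scramble replicate 3. The S phase sums given above moved in the same direction between the groups, and the part of the cell cycle in it was not tested. The calls of Brca1, Brca2 and Rad54l against scramble in the circSlc45a4 knockdown each ended without replicate 1 or 2 of that group or replicate 2 or 3 of scramble (adjusted p of 0.0784 to 0.186, 0.056 to 0.0787 and 0.0686 to 0.139). The higher calls of Rad54l and Rad54b in the Slc45a4 mRNA knockdown ended without its replicate 1 or without scramble replicate 1 or 2, and that of Rad54b also without Slc45a4 mRNA knockdown replicate 2 (adjusted p of 0.0863 to 0.0899 and 0.0525 to 0.152). With the Xist covariate all of these calls against scramble ended. In the circSlc45a4 knockdown Brca1, Brca2 and Rad54l were at -0.69, -0.42 and -0.66 (adjusted p of 0.217, 0.467 and 0.211). In the Slc45a4 mRNA knockdown, that fit put Rad54l and Rad54b at 0.51 and 0.41 (adjusted p of 0.309 and 0.506). With the replicate block that of Rad54b ended too (adjusted p = 0.0813). The differences of Brca1, Brca2, Rad54l and Rad54b between the knockdowns held in all 16 alternative fits. With the Xist covariate these 4 differences were -1.05, -0.98, -1.18 and -0.81 (adjusted p of 0.0019, 0.00294, 0.000711 and 0.0123).

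Of the 4 checkpoint kinases, 3 were lower in the circSlc45a4 than in the Slc45a4 mRNA knockdown (median of the 4 -0.86), 2 were higher in the Slc45a4 mRNA knockdown than in scramble, and none was called in the circSlc45a4 knockdown against scramble. Atm, the kinase that answers double-strand breaks (ENSMUSG00000034218.15, chromosome 9, 53439149 to 53536740, minus strand), was read at 56.8, 53.6 and 62.3 CPM in scramble, at 45.6, 41.6 and 55.0 after circSlc45a4 knockdown and at 96.1, 86.5 and 105 after Slc45a4 mRNA knockdown. Each Slc45a4 mRNA knockdown library lay above every other library. Replicate 3 of that group, 1 library, reads Xist as low as scramble does, and the part of Xist in the level of Atm was not tested. Atm rose by 0.73 ± 0.11 on the log2 scale against scramble (adjusted p = 0.000607), from 57.6 ± 4.39 to 95.8 ± 9.15 CPM (SD, n = 3). In the circSlc45a4 knockdown it was -0.28 ± 0.11 (adjusted p = 0.0781), and the knockdowns differed by -1.01 ± 0.11 (adjusted p = 4.11e-05). Both calls of Atm held in all 16 alternative fits, with adjusted p up to 0.00805 against scramble, the highest being that with the Xist covariate.

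Chek2, the kinase that Atm activates (ENSMUSG00000029521.7, chromosome 5, 110839979 to 110874145, plus strand), was read at 7.70, 9.04 and 11.7 CPM in scramble, at 6.35, 7.46 and 6.84 after circSlc45a4 knockdown and at 20.1, 13.7 and 12.5 after Slc45a4 mRNA knockdown. The 3 groups did not overlap, with the circSlc45a4 knockdown below scramble and the Slc45a4 mRNA knockdown above it. The change was -0.47 ± 0.20 (adjusted p = 0.0956) in the first and 0.70 ± 0.19 (adjusted p = 0.0247) in the second, and between the knockdowns -1.17 ± 0.19 (adjusted p = 0.000827), the largest difference of the 43 genes. Chek1, the kinase that Atr activates when replication stalls, was read at 13.8, 18.6 and 22.6, 11.9, 14.1 and 15.51 and 32.4, 17.1 and 18.1 CPM in scramble, the circSlc45a4 knockdown and the Slc45a4 mRNA knockdown. Its replicate 1 of the Slc45a4 mRNA knockdown stood apart, while replicates 2 and 3 lay within scramble, and its level differed between the knockdowns by -0.70 ± 0.23 (adjusted p = 0.0386). Atr was called in no comparison, at 51.6 to 59.0 CPM in scramble, 59.5 to 67.8 in the circSlc45a4 knockdown and 57.4 to 71.4 in the Slc45a4 mRNA knockdown. The higher call of Chek2 against scramble ended without Slc45a4 mRNA knockdown replicate 1 or scramble replicate 1 or 2 (adjusted p of 0.0845 to 0.0973). It also ended with the Xist covariate (0.38, adjusted p = 0.515) and with the replicate block (adjusted p = 0.0555). The call of Chek1 ended without any 1 of the circSlc45a4 knockdown libraries or Slc45a4 mRNA knockdown replicate 1 (log2 changes of -0.80 to -0.35, adjusted p of 0.0508 to 0.195), and with the replicate block (adjusted p = 0.0752).

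**Figure D3:**
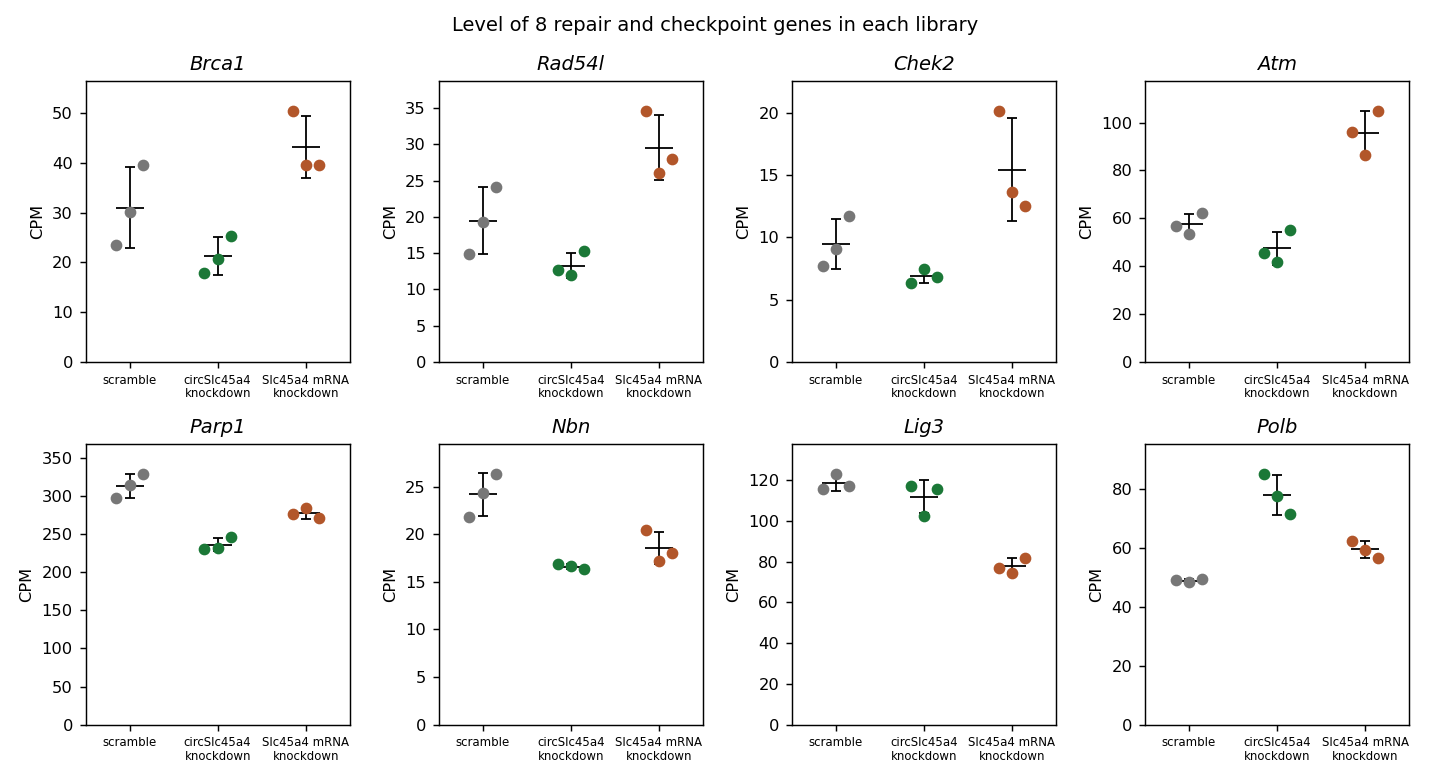
CPM of 8 genes in each library (points, replicates 1 to 3 from left to right, with the group mean and SD as lines and bars, n = 3, axes from 0) for Brca1, Rad54l, Chek2, Atm, Parp1, Nbn, Lig3 and Polb. Atm is high in all 3 Slc45a4 mRNA knockdown libraries (86.5 to 105 CPM), Lig3 is low in the same 3 (74.3 to 82.0), and Polb is highest in the circSlc45a4 knockdown (71.6 to 85.3).

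Among the 6 break sensors and mediators, Rad50 and Nbn of the MRN complex fell in the circSlc45a4 knockdown. Mre11a, the MRN gene outside the 43, was not called against scramble. It was at -0.21 (adjusted p = 0.2185) in the circSlc45a4 and 0.34 (adjusted p = 0.0676) in the Slc45a4 mRNA knockdown, and the knockdowns differed by -0.56 (adjusted p = 0.00466). Rad50 was read at 29.4, 30.7 and 35.0 CPM in scramble, at 17.6, 22.4 and 21.1 after circSlc45a4 knockdown and at 28.4, 22.5 and 25.5 after Slc45a4 mRNA knockdown. This ATPase bridges the broken ends, and its 3 circSlc45a4 knockdown libraries lay below all the others, the highest by a narrow margin below the Slc45a4 mRNA knockdown. It fell by 0.64 on the log2 scale (SE 0.12, adjusted p = 0.00195), and the Slc45a4 mRNA knockdown, also below scramble in all 3 libraries, was -0.32 ± 0.12 (adjusted p = 0.091). Nbn, which ties the complex to Atm (ENSMUSG00000028224.14, chromosome 4, 15957925 to 15992589, plus strand), was read at 21.9, 24.4 and 26.4, 16.8, 16.6 and 16.3 and 20.5, 17.2 and 18.0 CPM in scramble, the circSlc45a4 knockdown and the Slc45a4 mRNA knockdown. It was the only one of the 43 called lower in both, at -0.55 ± 0.11 (adjusted p = 0.00256) and -0.38 ± 0.11 (adjusted p = 0.0283), and the knockdowns were not called different (-0.16 ± 0.11 (adjusted p = 0.309)). Neither Rad50 nor Nbn lost its circSlc45a4 knockdown call without any 1 library. With the Xist covariate their changes were -0.62, adjusted p = 0.116 and -0.61, adjusted p = 0.0895. The call of Nbn in the Slc45a4 mRNA knockdown ended without its replicate 2 or 3 or scramble replicate 2 or 3 (adjusted p of 0.0831 to 0.115). It also ended with the Xist covariate (-0.43, adjusted p = 0.208) and with the replicate block (adjusted p = 0.0515).

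Topbp1, which activates Atr, was read at 96.7, 122 and 131 CPM in scramble, at 92.0, 89.2 and 103 after circSlc45a4 knockdown and at 146, 116 and 126 after Slc45a4 mRNA knockdown. The knockdowns did not overlap and differed by -0.45 ± 0.12 (adjusted p = 0.012), while each overlapped scramble. Rif1 was read at 102, 109.8 and 110.4 CPM in scramble, at 99.2, 88.6 and 106 after circSlc45a4 knockdown and at 136, 104 and 125 after Slc45a4 mRNA knockdown. Rif1, which protects ends from resection and sets replication timing, differed between the knockdowns by -0.31 ± 0.10 (adjusted p = 0.0375), with the lowest Slc45a4 mRNA knockdown library inside the range of the circSlc45a4 knockdown. The call of Topbp1 ended without circSlc45a4 knockdown replicate 1 or 2 (adjusted p of 0.0522 to 0.0574), and that of Rif1 without either of these or Slc45a4 mRNA knockdown replicate 1 or 3 (adjusted p of 0.0961 to 0.158) and with the Xist covariate (adjusted p = 0.0644). Trp53bp1 and Mdc1, scaffolds recruited to marked chromatin, were called in no comparison. Trp53bp1 was read at 372 to 381 CPM in scramble, 359 to 398 in the circSlc45a4 knockdown and 328 to 349.7 in the Slc45a4 mRNA knockdown, and Mdc1 at 84.4 to 110.5, 87.8 to 92.6 and 93.4 to 112.

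The Fanconi pathway unhooks crosslinks between the DNA strands, and its 5 genes all had negative log2 fold changes in the circSlc45a4 knockdown against scramble (median -0.25) and between the knockdowns (median -0.47). Fanca was read at 17.5, 20.1 and 24.2 CPM in scramble, at 14.6, 10.3 and 15.0 after circSlc45a4 knockdown and at 23.5, 23.8 and 24.9 after Slc45a4 mRNA knockdown. Fanca, a subunit of the core complex that ubiquitinates Fancd2, was lower in every circSlc45a4 knockdown library than in any other, at -0.64 ± 0.15 (adjusted p = 0.0074) against scramble and -0.86 ± 0.15 (adjusted p = 0.00121) against the Slc45a4 mRNA knockdown, which itself overlapped scramble. Fancd2 was read at 10.7, 14.2 and 18.4 CPM in scramble, at 11.7, 9.76 and 13.1 after circSlc45a4 knockdown and at 32.1, 22.3 and 18.2 after Slc45a4 mRNA knockdown. Fancd2, the protein clamped onto the crosslink, was higher in the Slc45a4 mRNA knockdown than in scramble, at 0.74 ± 0.22 (adjusted p = 0.0315), although the highest scramble library lay above the lowest of that group, and the knockdowns differed by -1.07 ± 0.22 (adjusted p = 0.00293) without overlap. Its call against scramble ended without Slc45a4 mRNA knockdown replicate 1 or scramble replicate 1 or 2 (log2 changes of 0.49 to 0.72, adjusted p of 0.102 to 0.123). It also ended with the Xist covariate (0.30, adjusted p = 0.658) and with the replicate block (adjusted p = 0.0616). The call of Fanca against scramble held without any 1 library and ended with the Xist covariate (-0.57, adjusted p = 0.234). Of the Fanca exon sequence, 10.5% is shared with Zfp276 on the opposite strand, which was at 0.03 in the circSlc45a4 knockdown. Fanci, Fancb and Fancm were called in no comparison, with changes between the knockdowns of -0.47, -0.42 and -0.09.

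Of the 2 RecQ helicases, which unwind branched DNA, Blm was read at 22.3, 26.1 and 30.6 CPM in scramble, at 22.0, 19.6 and 26.9 after circSlc45a4 knockdown and at 45.8, 29.8 and 36.1 after Slc45a4 mRNA knockdown. The knockdowns did not overlap and differed by -0.70 ± 0.17 (adjusted p = 0.00725), a call that held in all 16 alternative fits, whereas neither was called against scramble (-0.21 ± 0.17 and 0.50 ± 0.17, adjusted p of 0.39 and 0.054). Wrn was called in no comparison and had almost the same change in both knockdowns, -0.30 ± 0.15 and -0.28 ± 0.15.

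Base excision and single-strand break repair held the 2 genes called higher in the circSlc45a4 than in the Slc45a4 mRNA knockdown, Polb and Lig3, beside 3 called lower, Parp1, Parp2 and Apex1. Polb, the polymerase that fills the gap left by an excised base (ENSMUSG00000031536.6, chromosome 8, 22628126 to 22653435, minus strand), was read at 49.2, 48.4 and 49.4 CPM in scramble, at 85.3, 77.6 and 71.6 after circSlc45a4 knockdown and at 62.5, 59.4 and 56.8 after Slc45a4 mRNA knockdown. The 3 groups did not overlap, and scramble spread by little, at 49.0 ± 0.579 CPM (SD, n = 3). On the log2 scale Polb rose by 0.67 ± 0.08 in the circSlc45a4 knockdown (adjusted p = 7.44e-05) and by 0.28 ± 0.08 in the Slc45a4 mRNA knockdown (adjusted p = 0.034), and was higher in the first than in the second (0.39 ± 0.08 (adjusted p = 0.00388)). It was the only gene of the 43 called higher in the circSlc45a4 knockdown, and this call held in all 16 alternative fits, with the Xist covariate at 0.57, adjusted p = 0.0348. Its smaller rise in the Slc45a4 mRNA knockdown ended without replicate 1 or 2 of that group or any 1 scramble library (adjusted p of 0.0664 to 0.117). The same rise ended with the Xist covariate (0.20, adjusted p = 0.457).

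Lig3, the ligase that seals the repaired strand (ENSMUSG00000020697.16, chromosome 11, 82781108 to 82804274, plus strand), was read at 116, 123 and 117 CPM in scramble, at 117, 102 and 116 after circSlc45a4 knockdown and at 76.8, 74.3 and 82.0 after Slc45a4 mRNA knockdown. It fell in all 3 Slc45a4 mRNA knockdown libraries below every other library, by 0.61 on the log2 scale (SE 0.08, adjusted p = 0.00019), while scramble and the circSlc45a4 knockdown overlapped (-0.09 ± 0.08 (adjusted p = 0.451)). The circSlc45a4 knockdown was therefore higher than the Slc45a4 mRNA knockdown, by 0.53 ± 0.08 (adjusted p = 0.00038), and both calls held in all 16 alternative fits. Of the Lig3 exon sequence, 25.1% is shared with Rffl on the opposite strand, and Rffl was 0.03 in the Slc45a4 mRNA knockdown against scramble. Xrcc1, the scaffold that holds Lig3, was called in no comparison and was read at 48.7 to 50.5 CPM in scramble and 48.8 to 49.6 in the Slc45a4 mRNA knockdown.

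Parp1 and Parp2 attach poly(ADP-ribose) chains at strand breaks. Parp1 (ENSMUSG00000026496.11, chromosome 1, 180568924 to 180601254, plus strand) was read at 298, 314 and 329.5 CPM in scramble, at 231, 232 and 246 after circSlc45a4 knockdown and at 277, 285 and 271 after Slc45a4 mRNA knockdown. The 3 groups did not overlap, and the circSlc45a4 knockdown was the lowest, -0.41 ± 0.07 (adjusted p = 0.00103) against scramble, with the Slc45a4 mRNA knockdown between them at -0.18 ± 0.07 (adjusted p = 0.105). Parp2 was read at 40.2, 47.3 and 48.1 CPM in scramble, at 32.0, 32.4 and 34.3 after circSlc45a4 knockdown and at 51.3, 43.9 and 44.1 after Slc45a4 mRNA knockdown. Parp2 was also lower in every circSlc45a4 knockdown library than in any other, at -0.46 ± 0.10 (adjusted p = 0.00391) against scramble, whereas the Slc45a4 mRNA knockdown overlapped scramble (0.04 ± 0.10 (adjusted p = 0.834)). Between the knockdowns Parp1 differed by -0.23 ± 0.07 (adjusted p = 0.0303) and Parp2 by -0.50 ± 0.10 (adjusted p = 0.00265). Both calls against scramble held without any 1 library, and with the Xist covariate the changes were -0.44, adjusted p = 0.0597 and -0.55, adjusted p = 0.0795. The difference of Parp1 between the knockdowns ended without circSlc45a4 knockdown replicate 1 or 2 or Slc45a4 mRNA knockdown replicate 2 or 3 (adjusted p of 0.0543 to 0.119).

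Apex1 was read at 135, 141 and 149 CPM in scramble, at 110.3, 126 and 128 after circSlc45a4 knockdown and at 158, 165 and 158 after Slc45a4 mRNA knockdown. The circSlc45a4 knockdown lay below scramble and the Slc45a4 mRNA knockdown above it without overlap, and the call was that between the knockdowns, -0.40 ± 0.08 (adjusted p = 0.00253). Apex1 shares 61.7% of its exon sequence with Pip4p1 on the opposite strand, which moved the other way (0.35, adjusted p = 0.0112). Ogg1 was read at 10.2, 11.2 and 10.6 CPM in scramble, at 9.26, 8.06 and 8.52 after circSlc45a4 knockdown and at 8.48, 8.20 and 7.64 after Slc45a4 mRNA knockdown. Ogg1, which removes oxidised guanine, was lower in all 6 knockdown libraries than in any scramble library, and the call was in the Slc45a4 mRNA knockdown (-0.39 ± 0.13 (adjusted p = 0.0457)), beside -0.31 ± 0.13 (adjusted p = 0.088) in the circSlc45a4 knockdown. That call ended without any 1 of the 6 libraries compared (adjusted p of 0.0629 to 0.158). It also ended with the Xist covariate (-0.49, adjusted p = 0.21) and with the replicate block (adjusted p = 0.0702). Camk1, on the opposite strand, overlaps 10.6% of Ogg1 and was 0.82 in the Slc45a4 mRNA knockdown.

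In end joining, none of the 5 genes was called between the knockdowns. Prkdc, the kinase that the Ku dimer holds at a break, was read at 49.0, 41.1 and 43.1 CPM in scramble, at 31.5, 26.0 and 37.0 after circSlc45a4 knockdown and at 40.1, 34.5 and 41.9 after Slc45a4 mRNA knockdown. Every circSlc45a4 knockdown library was below scramble, at -0.49 ± 0.13 (adjusted p = 0.0119), and the Slc45a4 mRNA knockdown overlapped both. Xrcc6 was read at 37.8, 39.5 and 42.4 CPM in scramble, at 44.0, 42.0 and 43.6 after circSlc45a4 knockdown and at 53.2, 47.8 and 45.4 after Slc45a4 mRNA knockdown. Xrcc6, the smaller Ku subunit, was higher in the Slc45a4 mRNA knockdown, at 0.29 ± 0.09 (adjusted p = 0.0381), beside 0.11 ± 0.09 (adjusted p = 0.372) in the circSlc45a4 knockdown. Lig4 was read at 22.9, 20.7 and 21.1 CPM in scramble, at 19.6, 19.4 and 18.8 after circSlc45a4 knockdown and at 20.0, 14.2 and 14.2 after Slc45a4 mRNA knockdown. Lig4, the ligase of this route, was lower in the Slc45a4 mRNA knockdown, at -0.42 ± 0.13 (adjusted p = 0.0469), with its replicate 1 near the circSlc45a4 knockdown level. Xrcc5, the larger Ku subunit, and Xrcc4, the partner of Lig4, were called in no comparison and were 0.20 and 0.44 in the Slc45a4 mRNA knockdown. The call of Prkdc ended without circSlc45a4 knockdown replicate 2 (-0.37, adjusted p = 0.0546) and with the Xist covariate (-0.39, adjusted p = 0.332). That of Xrcc6 ended without Slc45a4 mRNA knockdown replicate 1 or 2 or any 1 scramble library (adjusted p of 0.0503 to 0.123), and that of Lig4 without Slc45a4 mRNA knockdown replicate 2 or 3 or any 1 scramble library (adjusted p of 0.0887 to 0.151). With the Xist covariate Xrcc6 was at 0.18 (adjusted p = 0.544) and Lig4 at -0.64 (adjusted p = 0.0812), and with the replicate block the call of Xrcc6 ended (adjusted p = 0.0643).

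All 3 mismatch repair genes had positive log2 fold changes in the Slc45a4 mRNA knockdown against scramble (median 0.39), and 2 were called. Msh6 was read at 52.4, 63.5 and 62.4 CPM in scramble, at 64.4, 66.9 and 72.1 after circSlc45a4 knockdown and at 89.0, 69.4 and 75.2 after Slc45a4 mRNA knockdown. Msh6, which recognises mispaired bases, was 0.39 ± 0.11 (adjusted p = 0.022) in the Slc45a4 mRNA knockdown, and the circSlc45a4 knockdown, also above every scramble library, was 0.19 ± 0.11 (adjusted p = 0.206). Pms2 was read at 19.2, 22.6 and 23.4 CPM in scramble, at 20.6, 19.4 and 19.9 after circSlc45a4 knockdown and at 29.5, 27.5 and 25.3 after Slc45a4 mRNA knockdown. Pms2, the endonuclease that nicks the faulty strand, was 0.33 ± 0.11 (adjusted p = 0.0472) against scramble and differed between the knockdowns by -0.46 ± 0.11 (adjusted p = 0.00709). Exo1, the exonuclease that removes the nicked strand, was read at 11.9, 16.4 and 22.7, 14.0, 14.0 and 17.7 and 35.2, 22.0 and 22.1 CPM in scramble, the circSlc45a4 knockdown and the Slc45a4 mRNA knockdown, with replicate 1 of the last group highest and scramble spread across both others. It differed between the knockdowns by -0.79 ± 0.22 (adjusted p = 0.0187). The calls of Msh6 and Pms2 against scramble ended without Slc45a4 mRNA knockdown replicate 1 or scramble replicate 1, and that of Pms2 also without Slc45a4 mRNA knockdown replicate 2 or scramble replicate 2 or 3 (adjusted p of 0.0669 to 0.0825 and 0.0555 to 0.16). Both also ended with the Xist covariate, at 0.33 and 0.21 (adjusted p of 0.296 and 0.548), and that of Pms2 with the replicate block (adjusted p = 0.0796). The difference of Exo1 ended without circSlc45a4 knockdown replicate 1 or 2 or Slc45a4 mRNA knockdown replicate 1 (adjusted p of 0.0761 to 0.081).

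In nucleotide excision repair, which removes bulky lesions, Ercc2 was the gene called. Ercc2 was read at 84.1, 88.8 and 85.6 CPM in scramble, at 84.9, 74.8 and 77.6 after circSlc45a4 knockdown and at 60.2, 76.0 and 71.8 after Slc45a4 mRNA knockdown. The Slc45a4 mRNA knockdown lay below scramble at -0.31 ± 0.09 (adjusted p = 0.033) and overlapped the circSlc45a4 knockdown, and the call ended without its replicate 1 or 3 or any 1 scramble library (adjusted p of 0.0598 to 0.124). The call also ended with the Xist covariate (-0.25, adjusted p = 0.411) and with the replicate block (adjusted p = 0.0559). Ercc2 shares 24.6% of its exon sequence with Gm26852, a gene too low to test, and 17.8% with Klc3, both on the opposite strand. Klc3 was at 0.75 in the Slc45a4 mRNA knockdown against scramble. Ercc1 and Ercc5, of the endonucleases that cut on either side of the lesion, were called in no comparison. Ercc1 was read at 17.7 to 20.7 CPM in scramble, 20.4 to 24.5 in the circSlc45a4 knockdown and 20.5 to 27.4 in the Slc45a4 mRNA knockdown, and Ercc5 at 62.4 to 68.6, 54.6 to 61.9 and 61.1 to 67.8.

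Another 104 genes of the same routes, outside the 43, were counted for comparison, of which 102 could be tested. In the circSlc45a4 knockdown against scramble 23 were lower and 4 higher (median -0.17), in the Slc45a4 mRNA knockdown 11 lower and 9 higher (median 0.08), and between the knockdowns 38 lower and 7 higher in the circSlc45a4 knockdown (median -0.27). Those shares, 26.5%, 19.6% and 44.1%, stand beside the 27.1%, 18.0% and 26.1% of all genes. The smallest p against scramble in the circSlc45a4 knockdown belonged to Faap20, a core Fanconi subunit (43.2, 44.6 and 41.2 CPM in scramble, 26.2, 25.0 and 24.7 in the circSlc45a4 knockdown, -0.77 ± 0.09, adjusted p = 3.31e-05). Babam1, a subunit of the Brca1-A complex, followed at -0.60 ± 0.09, adjusted p = 0.000221, and Ercc8, which serves transcription-coupled repair, at 0.64 ± 0.11, adjusted p = 0.000635. In the Slc45a4 mRNA knockdown, Rad23b, a partner of the damage sensor Xpc, was read at 132, 119.5 and 128 CPM against 216, 199.9 and 194 in scramble (-0.68 ± 0.07, adjusted p = 5.84e-05), and Smug1, a uracil glycosylase, and Rmi1, a partner of Blm, were -0.63 ± 0.12 and -0.66 ± 0.13 (adjusted p of 0.00292 and 0.00452). Between the knockdowns the smallest p values were those of Rad23b (0.79 ± 0.07, adjusted p = 1.45e-05), Ddb2, which finds ultraviolet lesions (-0.91 ± 0.12, adjusted p = 0.000178), and Babam1 (-0.62 ± 0.08, adjusted p = 0.00021).

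The genes of the cell cycle lists were lower in the circSlc45a4 knockdown in the direct comparison too. In the S phase and replication list 35 of 39 genes were lower in the circSlc45a4 than in the Slc45a4 mRNA knockdown and 1 higher (median -0.75), and in the G2 and M phase list 24 of 30 were lower and 0 higher (median -0.81). Against scramble, the circSlc45a4 knockdown had 20 S phase genes lower and 2 higher, and the Slc45a4 mRNA knockdown 1 lower and 9 higher. Of the 30 G2 and M phase genes, 2 were lower and 0 higher in the circSlc45a4 knockdown against scramble, a share of 6.67%, and 9 were higher and 0 lower in the Slc45a4 mRNA knockdown. Targets of p53, which the damage kinases activate, were mixed in direction. Of 23 tested, 3 were lower and 2 higher in the circSlc45a4 knockdown against scramble, and 4 lower and 6 higher in the Slc45a4 mRNA knockdown. Between the knockdowns 6 were lower and 4 higher, and the 3 medians were -0.05, 0.08 and -0.05. The shares called were 21.7%, 43.5% and 43.5%, beside 27.1%, 18.0% and 26.1% of all genes. Ddb2, Polk and Xpc stand both in this list and among the 104 repair genes. The smallest p in the 3 comparisons belonged to Zmat3 (0.92 ± 0.09, adjusted p = 7.44e-06), Aen (-0.58 ± 0.08, adjusted p = 0.000363) and Plk2 (-1.09 ± 0.10, adjusted p = 1.48e-05). Apical progenitor markers, which mark cells that divide at the ventricle, were higher in both knockdowns, with 15 of 20 called in the circSlc45a4 knockdown and 10 of 20 in the Slc45a4 mRNA knockdown. Of 14 basal progenitor markers, which mark the dividing cells of the subventricular zone, 7 were lower and 0 higher in the circSlc45a4 knockdown against scramble, 3 lower and 0 higher in the Slc45a4 mRNA knockdown, and 6 lower and 2 higher between the knockdowns.

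**Figure D4:**
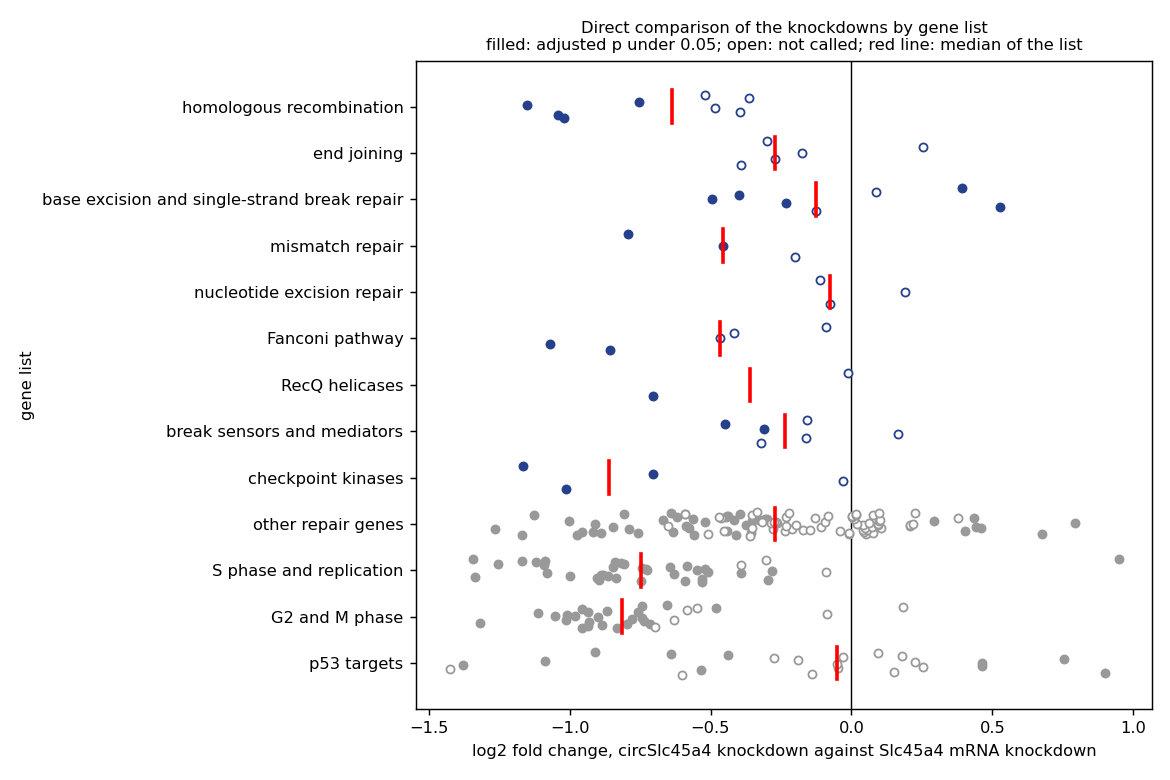
Log2 fold change of the circSlc45a4 against the Slc45a4 mRNA knockdown for each gene (points, filled for adjusted p under 0.05), by repair route, with the other repair genes, the S phase, the G2 and M phase and the p53 target lists below. Red lines mark the median of each list, which is -0.64 for homologous recombination, -0.86 for the checkpoint kinases, -0.13 for base excision repair and -0.75 for the S phase list.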

How the data were processed

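RNA was sequenced from 9 libraries in 3 groups of 3. The deposited table holds the authors' raw read counts per gene, whole numbers without normalization, per the file headers. Build mm10 is named in the submitters' processing notes, which also list STAR 2.4.2a, bcl2fastq 2.17.1.14 and DESeq2 in no stated order. The annotation release, the counting program and the strand setting are not given in the sources used, so reads of genes that overlap on opposite strands cannot be told apart. Symbols and coordinates were joined from GENCODE M21 (GRCm38) by Ensembl ID, which gave a symbol for 53274 of 53379 IDs.

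Genes were kept by filterByExpr (minimum count 10, by group) and scaled by TMM in edgeR 4.0.16 under R 4.3.3. The quasi-likelihood model had a mean for each of the 3 groups and used all 9 libraries, which leaves 6 residual degrees of freedom, with a 2-sided F test for each pair of groups and Benjamini-Hochberg adjustment over the 17760 genes tested. Errors after ± are standard errors of the log2 fold change, its size divided by the square root of F, unless marked SD. Total counts of 21073174 to 45469298 set the counting precision, and without molecular identifiers reads are not independent molecules. Where nothing shows that replicates came from separate litters, the p-values measure the spread between these libraries.

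The alternatives were other scaling factors, DESeq2 1.42.0, limma-voom 3.58.1, other filters, the 6 libraries compared alone, a replicate block, the Xist level (log2 of CPM + 0.1) as covariate, a minimum change of 1.2-fold and each library left out. Labels share replicate numbers 1 to 3 between groups, without saying that these pair the samples. All 43 genes are accounted for, with values in every library for the 27 called. Of other lists, at most the 3 genes with the smallest p in a comparison are named, and Mre11a as the MRN gene outside the 43. The genes, lists and tests were chosen with earlier results of these data known.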

Additional observations from a re-analysis of the deposited data

Results flagged for a closer look

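In the direct test of one knockdown against the other, which is the difference of their changes against the shared scramble libraries, 19 of the 43 repair and checkpoint genes were called, beside 26.1% of all genes. The log2 differences (circSlc45a4 minus Slc45a4 mRNA knockdown) were largest for Chek2 (-1.17), Rad54l (-1.15), Fancd2 (-1.07), Brca2 (-1.04), Brca1 (-1.02) and Atm (-1.01). These genes belong to homologous recombination, the Fanconi pathway and the checkpoint kinases, of which 4 of 8, 2 of 5 and 3 of 4 genes were called lower. Lower calls were not particular to these routes. They were 2 of 3 in mismatch repair, 1 of 2 RecQ helicases, 3 of 7 in base excision and 2 of 6 break sensors and mediators. No gene of end joining or nucleotide excision repair was called lower, and 12.3% of all genes tested were. Next by size of the difference came Fanca (-0.86), Exo1 (-0.79), Rad54b (-0.75), Blm (-0.70) and Chek1 (-0.70). Smaller differences were those of Parp2 (-0.50), Pms2 (-0.46), Topbp1 (-0.45), Apex1 (-0.40), Rif1 (-0.31) and Parp1 (-0.23). Polb (0.39) and Lig3 (0.53), both of base excision repair, were higher in the circSlc45a4 knockdown. Of these 19 calls, 14 held whichever single library was left out, and those of Chek1, Exo1, Parp1, Rif1 and Topbp1 did not.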

How the results depend on the processing

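No log2 fold change changed sign in any alternative in the comparison in which its gene was called. The single higher call in the circSlc45a4 knockdown against scramble, Polb, stayed in all 16 alternatives. The 9 lower calls there came to 14 with no filter, 0 with the Xist covariate and 3 with a minimum change of 1.2-fold, and to 5 to 11 with 1 library left out. In the Slc45a4 mRNA knockdown against scramble the 9 higher calls came to 5 with only the 6 libraries compared, 4 with the replicate block, 1 with the Xist covariate, 1 with the minimum change and 1 to 9 with 1 library left out, and DESeq2 gave 13. The 5 lower calls there came to 3, 2, 1, 1 and 1 to 4 in the same order. Over all genes, the Xist covariate brought the calls against scramble from 4814 to 1241 in the circSlc45a4 and from 3200 to 758 in the Slc45a4 mRNA knockdown. Between the knockdowns the 17 lower calls came to 10 with the minimum change and to 12 to 19 with 1 library left out, and the 2 higher ones to 1 and to 2 to 3. With the replicate block the direct comparison gave 16 lower and 2 higher calls, and the circSlc45a4 knockdown 10 lower and 1 higher. Libraries of the same number had correlated deviations of -0.141 to 0.115. Between the knockdowns every same-number pair was positive (0.081 to 0.115) and every other pair negative (-0.071 to -0.028). Deviations from a group mean sum to 0 within the group, so positive same-number pairs make the other pairs negative on average. Same-number pairs with scramble ran from -0.141 to 0.034. The labels state no pairing, so the main fit has none, and whether the numbers pair the samples is not known. Upper-quartile scaling changed the share of higher among all calls in the direct comparison from 52.8% to 42.1% and in the circSlc45a4 knockdown against scramble from 52.1% to 42.3%, with 20 and 13 lower calls among the 43 genes. The cause of these changes was not tested.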
